A study of Mus musculus with 13 samples.

Results

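Matricellular proteins are secreted into the extracellular matrix, where they act mainly on cell surface receptors and on other matrix proteins and contribute less to the mechanical scaffold than collagens do. Tenascins, thrombospondins, osteopontin, SPARC, and periostin are the classical examples, and many of them are known to rise where tissue is injured or remodelled. In a crushed nerve, Schwann cells (SCs), fibroblasts, perineurial cells, and macrophages all contribute to the matrix along which axons regrow. Fibronectin is an adhesive glycoprotein that integrins bind and assemble into fibrils, and fibulin-5 is a glycoprotein that helps elastic fibres to assemble.

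Here 10 such genes were followed, out of 40787 in the table. They were Tnc, Tnxb, Thbs1, Thbs2, Thbs4, Spp1, Sparc, Postn, Fn1, and Fbln5. They were chosen by name, as tenascin, thrombospondin, and other matrix glycoprotein genes, together with the observation in these libraries that Tnc and Fbln5 depended on genotype after injury. The comparisons of genotype in injured nerves, and of the genotype effect between injured and contralateral nerves, are therefore given for all 10 genes as descriptions without a p-value. For Tnc and Fbln5, whose patterns led to the choice, no p-value is given in any comparison. All 10 genes passed the count filter in every comparison, and the lowest value of any of them was 98 counts.

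RNA was sequenced from 13 sciatic nerves of C57BL/6 mice, collected 5 days post crush (dpc) from the injured side or from the uninjured contralateral side. Controls were Rptor flox/flox mice without Cre, and they gave 3 injured and 3 contralateral nerves. RaptorKOs were Rptor flox/flox mice with a tamoxifen-inducible CreERT2 transgene, and they gave 3 injured and 4 contralateral nerves. Both genotypes received tamoxifen at 2 months of age and were operated 2 months later, so that floxed alleles and tamoxifen were common to all groups. Raptor is a subunit that the kinase complex mTORC1 needs, and the transgene was used to delete it in SCs, so that other cells of the nerve were not its target. Recombination was not measured by cell type here. Each library came from a whole nerve piece freed of its epineurium (distal to the crush on the injured side), and a lower value can therefore reflect fewer cells of a type or less RNA per cell, which cannot be told apart. Library totals ranged from 8200458 to 13581775 counts. Rptor, the targeted gene, stood at 43.9 to 52.7 counts per 1000000 (CPM, scaled with TMM factors) in control contralateral and at 22.1 to 28.2 CPM in RaptorKO contralateral nerves, and at 35.2 to 48.8 and 23.3 to 28.8 CPM in the injured nerves of the same genotypes. Sex-linked genes set both libraries of control replicate 3 apart from the other 11. Leaving out both changed the direction or the call of none of the 10 genes in the comparison of injured with contralateral controls or in that of the genotype effects.

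The sequences that precede the start of transcription are shown for 5 of the genes, because these include the genes with the widest range of levels. Tnc, Thbs2, and Postn were higher, and Fbln5 and Tnxb lower, in injured than in contralateral control nerves. Each line gives the 250 bases before the start site that RefSeq annotates on GRCm38.p6, 5′ to 3′ on the strand of the gene. Capitals mark matches to TGANTCA, the AP-1 motif to which c-Jun dimers bind, and to TATAAA, the TATA box, each searched on both strands (TTTATA is TATAAA read on the other strand, and TGANTCA reads alike on both). The windows lie at chr4:64047016-64047265 (Tnc, minus strand), chr17:14694263-14694512 (Thbs2, minus strand), chr3:54360857-54361106 (Postn, plus strand), chr12:101819120-101819369 (Fbln5, minus strand), and chr17:34670285-34670534 (Tnxb, plus strand).
Tnc: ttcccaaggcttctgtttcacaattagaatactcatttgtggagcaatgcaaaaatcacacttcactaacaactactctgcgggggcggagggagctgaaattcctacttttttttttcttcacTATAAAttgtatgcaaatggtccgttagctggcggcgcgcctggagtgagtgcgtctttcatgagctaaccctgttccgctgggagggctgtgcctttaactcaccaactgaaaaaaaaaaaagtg
Thbs2: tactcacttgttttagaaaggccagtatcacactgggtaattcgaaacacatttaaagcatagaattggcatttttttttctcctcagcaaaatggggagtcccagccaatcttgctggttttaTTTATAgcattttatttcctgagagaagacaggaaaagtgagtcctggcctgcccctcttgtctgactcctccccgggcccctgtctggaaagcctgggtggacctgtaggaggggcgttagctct
Postn: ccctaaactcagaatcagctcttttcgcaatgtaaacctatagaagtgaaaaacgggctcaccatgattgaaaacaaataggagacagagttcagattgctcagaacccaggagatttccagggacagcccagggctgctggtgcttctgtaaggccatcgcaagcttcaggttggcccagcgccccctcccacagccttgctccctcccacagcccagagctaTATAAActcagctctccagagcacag
Fbln5: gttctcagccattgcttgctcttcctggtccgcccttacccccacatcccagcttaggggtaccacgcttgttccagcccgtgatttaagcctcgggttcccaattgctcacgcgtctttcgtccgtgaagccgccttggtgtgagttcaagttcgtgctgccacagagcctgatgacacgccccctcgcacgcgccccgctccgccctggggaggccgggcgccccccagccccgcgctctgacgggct
Tnxb: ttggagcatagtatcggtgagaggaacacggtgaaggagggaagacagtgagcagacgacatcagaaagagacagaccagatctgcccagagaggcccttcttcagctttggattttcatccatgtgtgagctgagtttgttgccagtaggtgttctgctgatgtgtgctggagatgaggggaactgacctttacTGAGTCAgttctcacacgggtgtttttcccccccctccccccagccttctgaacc
Of the 5 genes shown, the 3 that were higher after injury each carried a TATA match in this window. Its first base lay 126 bases before the start in Tnc and Thbs2 and 26 bases before it in Postn. Spp1, not shown and lower after injury in controls, also carried a TATA match, with its first base 211 bases before a start. Tnxb carried the AP-1 match, with its first base 55 bases before the start, and the Fbln5 window held neither motif. Of the 10 genes, 8 had an entry in the promoter table (Thbs1 and Fn1 did not), with 12 windows in all. The AP-1 motif was found in 1 of these 12 windows and in 6.75% of all 32851 windows of the same length. The TATA motif was found in 5 of the 12 windows, which belonged to 4 genes (Tnc, Thbs2, Postn, and Spp1), and in 12.4% of all windows. The Tnc window shown overlaps another Tnc window (chr4:64046937-64047186) that holds the same match, so this match is counted in both. A match describes letters only.

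Levels of different genes were compared per kilobase of exon. Sparc stood highest and Spp1 next in each of the 4 groups, with a mean of 2179 ± 123 (SD) CPM per kilobase for Sparc and 729.7 ± 47.0 for Spp1 in control contralateral nerves (n = 3). Tnc stood lowest in contralateral nerves of both genotypes, at 2.46 ± 0.228 CPM per kilobase in controls and 2.11 ± 0.642 in RaptorKOs (n = 4). In injured nerves Fbln5 took the lowest place, at 3.17 ± 0.338 CPM per kilobase in controls and 4.10 ± 0.382 in RaptorKOs (n = 3 each). Between these ends the order shifted with injury. Thbs2 moved from the ninth place in control contralateral nerves to the fourth in injured ones, and Tnxb from the fourth to the ninth. In control contralateral nerves the libraries of neighbouring genes overlapped for Tnxb and Fn1, Fn1 and Fbln5, Thbs1 and Postn, and Postn and Thbs2. In control injured nerves Fn1, Thbs2, Thbs4, Postn, Tnc, and Thbs1 formed a run in which each gene overlapped the next. In RaptorKO injured nerves Tnc and Postn, whose libraries overlapped, dropped below Thbs1, while Spp1, Thbs4, Fn1, and Thbs2 overlapped in turn.

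**Figure D1:**
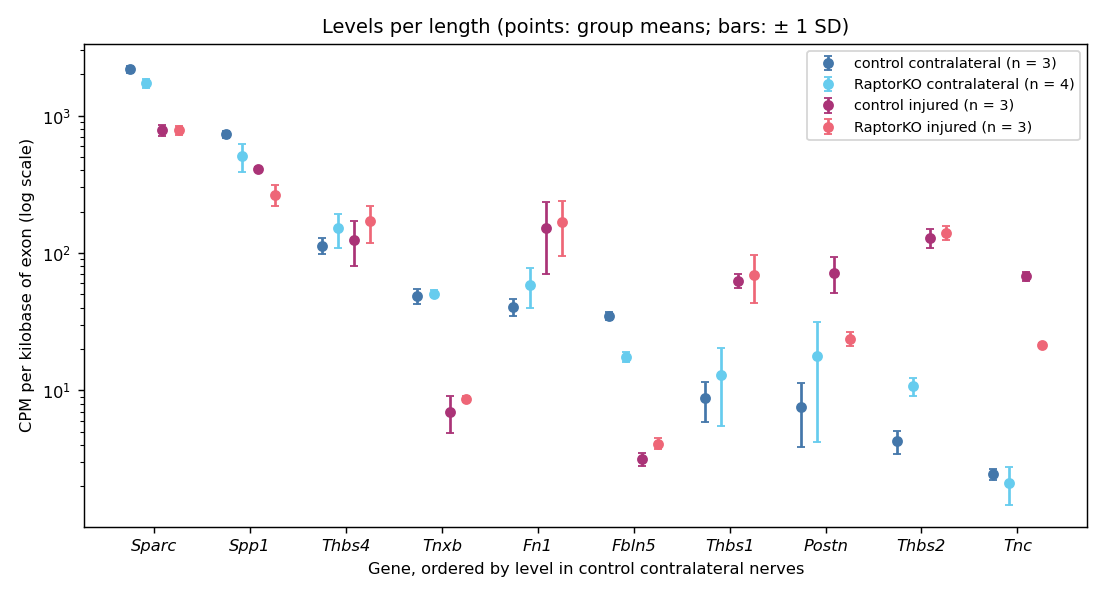
Mean level of each gene in CPM per kilobase of exon on a log axis (bars, ± 1 SD), for control contralateral (n = 3), RaptorKO contralateral (n = 4), control injured (n = 3), and RaptorKO injured nerves (n = 3). Genes are ordered by their level in control contralateral nerves, from Sparc at 2179 to Tnc at 2.46 CPM per kilobase.

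The first question was how the genes responded to injury in nerves with intact mTORC1. In controls 5 of the 10 genes were higher in injured nerves (Tnc, Thbs1, Thbs2, Postn, and Fn1), 4 were lower (Tnxb, Spp1, Sparc, and Fbln5), and Thbs4 was not called. The background is large here, since 32.4% of the 12430 genes tested were called higher and 32.9% lower. In RaptorKOs 4 genes were higher (Tnc, Thbs1, Thbs2, and Fn1), the same 4 as in controls were lower, and Thbs4 and Postn were not called, against 30.5% of 12515 genes called higher and 28.5% lower. The median log2 fold change of the 10 genes was 1.0 in controls and 0.29 in RaptorKOs, beside -0.002 and 0.028 over all genes tested. With genes split between rises and falls, this median is the midpoint of Thbs4 (0.11) and Fn1 (1.89) in controls. In RaptorKOs it is the midpoint of Thbs4 (0.16) and Postn (0.42). Nothing is therefore read from these medians about the set. Genes were called with edgeR's quasi-likelihood test at a Benjamini-Hochberg adjusted p below 0.05 over all genes tested and a fold change above 1.2, and adjusted p-values below come from this test.

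Tenascin-C, encoded by Tnc (chr4:63959785-64047015, minus strand, GRCm38), is a large hexameric glycoprotein of embryonic and healing tissue that modulates cell adhesion. Tnc stood at 21, 17.5, and 18.7 CPM in the 3 control contralateral nerves and at 575, 497, and 517 CPM in the 3 control injured nerves. In RaptorKOs it stood at 16.4, 20.5, 9.38, and 19.4 CPM in the 4 contralateral and at 171, 168, and 164 CPM in the 3 injured nerves. Every injured nerve thus lay above every contralateral one, and the injured RaptorKOs lay below all injured controls, close to one another. The log2 fold change after injury was 4.77 (standard error 0.12, 27.2-fold) in controls and 3.35 (standard error 0.21, 10.2-fold) in RaptorKOs. Between contralateral nerves the genotypes overlapped, with a log2 difference of -0.20 (standard error 0.23) that came to 0.00 without RaptorKO contralateral 3, the library at 9.38 CPM. Between injured nerves RaptorKOs were lower by a log2 difference of -1.64 (standard error 0.11, 3.13-fold). The effect of genotype changed by -1.44 (standard error 0.26) from contralateral to injured nerves.

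Tenascin-X, encoded by Tnxb (chr17:34670535-34719815, plus strand), associates with collagen fibrils in mature connective tissue. It moved opposite to Tnc after injury. Tnxb stood at 683, 556, and 541 CPM in control contralateral and at 110.4, 59.9, and 85.1 CPM in control injured nerves. The RaptorKO values were 592, 656, 638, and 581 CPM in contralateral and 105, 112, and 101 CPM in injured nerves. Contralateral and injured nerves were far apart in both genotypes, while the genotypes overlapped on either side. Tnxb fell by 2.83 on the log2 scale in controls (standard error 0.20, adjusted p = 1.11e-07) and by 2.55 in RaptorKOs (standard error 0.099, adjusted p = 1.48e-08). The contralateral difference between genotypes was 0.07 (standard error 0.097, adjusted p = 0.70).

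Thrombospondin-1 and thrombospondin-2, encoded by Thbs1 (chr2:118111876-118127133, plus strand) and Thbs2 (chr17:14665500-14694235, minus strand), form trimers, bind CD36 and CD47, and restrain the growth of blood vessels. Thbs2 stood at 31.1, 23.4, and 34.8 CPM in control contralateral and at 767, 1049, and 899 CPM in control injured nerves. In RaptorKOs it stood at 73.0, 62.6, 90.0, and 74.3 CPM in contralateral and at 1053, 863, and 1050.5 CPM in injured nerves. The uninjured RaptorKO nerves were all above the uninjured controls, whereas injured nerves of both genotypes reached about the same level. Thbs2 rose by 4.90 on the log2 scale in controls (standard error 0.18, adjusted p = 5.08e-10) and by 3.72 in RaptorKOs (standard error 0.14, adjusted p = 1.19e-08). Thbs1 ranged from 33.7 to 66.9 CPM in control contralateral and from 346 to 434 CPM in control injured nerves. In RaptorKOs it ranged from 41.9 to 139 CPM in contralateral and from 248 to 566 CPM in injured nerves. Injury again separated all libraries, and the RaptorKO values were the more scattered ones on both sides. Thbs1 rose by 2.83 in controls (standard error 0.21, adjusted p = 1.92e-07) and by 2.41 in RaptorKOs (standard error 0.41, adjusted p = 0.000455).

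Thrombospondin-4, encoded by Thbs4 (chr13:92751590-92794818, minus strand), forms pentamers and is abundant in tendon and muscle. It was the gene with the least response to injury. Thbs4 stood at 352, 337, and 428 CPM in control contralateral and at 579, 299, and 354 CPM in control injured nerves. The RaptorKO values were 542, 384, 673, and 391 CPM in contralateral and 541, 399.7, and 737 CPM in injured nerves. Injured and contralateral nerves overlapped in both genotypes. The log2 fold change was 0.11 in controls (standard error 0.20, adjusted p = 0.634) and 0.16 in RaptorKOs (standard error 0.23, adjusted p = 0.567). It turned to -0.19 without control injured 1 and to -0.09 without RaptorKO injured 3, the highest library of each group. The tendon and cartilage genes Tnmd, Scx, Chad, and Acan summed to at most 1.72 CPM in any library, and 5 skeletal muscle genes to at most 26.1 CPM. Both of these sums were in RaptorKO contralateral 3, the contralateral nerve with the highest Thbs4 value. The muscle sums were 14.4, 3.30, 26.1, and 6.86 CPM in RaptorKO contralateral 1 to 4 and 10.6, 3.36, and 8.04 CPM in control contralateral 1 to 3. They were at most 1.83 CPM in control injured and 1.74 CPM in RaptorKO injured nerves. Their part in the Thbs4 values was not tested. Chad and Myh4 held 3 counts or fewer in every library.

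Osteopontin, encoded by Spp1 (chr5:104435118-104441050, plus strand), is a secreted phosphoprotein that binds integrins and CD44. Spp1 stood at 1273, 1215, and 1119 CPM in control contralateral nerves and at 693, 689, and 649 CPM in control injured nerves. In RaptorKOs it stood at 856, 1088, 656, and 735 CPM in contralateral and at 465, 349.9, and 496 CPM in injured nerves. RaptorKOs lay below controls on both sides without overlap, and within each genotype the injured nerves lay below the contralateral ones. Spp1 fell by 0.85 on the log2 scale after injury in controls (standard error 0.097, adjusted p = 8.67e-06) and by 0.94 in RaptorKOs (standard error 0.18, adjusted p = 0.00116).

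SPARC (osteonectin), encoded by Sparc (chr11:55394500-55423183, minus strand), binds collagen and calcium. Sparc stood at 8131, 8771, and 7861 CPM in control contralateral and at 3161, 3088, and 2653 CPM in control injured nerves. In RaptorKOs the values were 6220.2, 6927, 6036, and 6842 CPM in contralateral and 3022, 2725, and 3125 CPM in injured nerves. Genotypes were apart in contralateral nerves only and intermixed after injury. Sparc fell by 1.5 in controls (standard error 0.086, adjusted p = 2.09e-08) and by 1.14 in RaptorKOs (standard error 0.099, adjusted p = 3.58e-06).

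Periostin, encoded by Postn (chr3:54361109-54391037, plus strand), is a fasciclin-domain protein that links collagen, fibronectin, and tenascin-C. Postn stood at 79.8, 29.1, and 90.0 CPM in control contralateral nerves and at 476, 575, and 832 CPM in control injured nerves. In RaptorKOs it stood at 199, 50.5, 302, and 66.8 CPM in contralateral nerves and at 197, 189.9, and 234 CPM in injured nerves. All injured controls thus exceeded every other nerve, and the injured RaptorKOs lay within the range of their contralateral nerves. RaptorKO contralateral 2 and 4 (50.5 and 66.8 CPM) lay below every injured RaptorKO, whereas RaptorKO contralateral 3 (302 CPM) lay above them all. The adipocyte markers Adipoq, Plin1, Cidec, and Car3 summed to 31.9, 0.307, 597, and 0.259 CPM in RaptorKO contralateral 1 to 4. In control contralateral 1 to 3 they summed to 42.9, 0.409, and 137 CPM. Their part in the Postn values was not tested. Postn rose by 3.22 in controls (standard error 0.35, adjusted p = 6.45e-06). The change in RaptorKOs was 0.42 (standard error 0.50, adjusted p = 0.494), and it stood between 0.12 (without RaptorKO contralateral 2) and 0.96 (without RaptorKO contralateral 3, adjusted p = 0.0582) when single libraries were left out. The adjusted p of that change ranged from 0.0582 to 0.821 over the 11 alternatives followed for single genes. These 11 leave out edgeR's exact test, the fit without a count filter, the stricter threshold, and the fit of all 13 libraries.

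Fibronectin, encoded by Fn1 (chr1:71585520-71653200, minus strand), stood at 455, 417, and 545 CPM in control contralateral and at 2893, 1411, and 1062 CPM in control injured nerves. In RaptorKOs it stood at 764, 562, 968, and 462 CPM in contralateral and at 1724, 1259, and 2893 CPM in injured nerves. Injured nerves were above contralateral ones in both genotypes, and 1 library of each injured group reached about the same high value. Fn1 rose by 1.89 in controls (standard error 0.29, adjusted p = 0.000104) and by 1.5 in RaptorKOs (standard error 0.29, adjusted p = 0.00121). Without control injured 1 the rise in controls was 1.39, and without RaptorKO injured 3 that in RaptorKOs was 1.11, both still called.

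Fibulin-5, encoded by Fbln5 (chr12:101746565-101819055, minus strand), showed the largest fall of the 10 genes in controls. Fbln5 stood at 249, 251, and 223 CPM in control contralateral and at 21.3, 24.5, and 20 CPM in control injured nerves. In RaptorKOs it stood at 125, 133, 112, and 113 CPM in contralateral and at 25.5, 28.7, and 30.8 CPM in injured nerves. RaptorKOs were below controls in contralateral nerves and slightly above them in injured nerves, without overlap on either side. The log2 fold change after injury was -3.48 (standard error 0.10, 11.2-fold lower) in controls and -2.10 (standard error 0.11, 4.28-fold lower) in RaptorKOs. The difference between genotypes was -0.98 (standard error 0.087, 1.97-fold lower) in contralateral and 0.38 (standard error 0.15, 1.31-fold higher) in injured nerves. The effect of genotype changed by 1.36 (standard error 0.14) from contralateral to injured nerves.

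**Figure D2:**
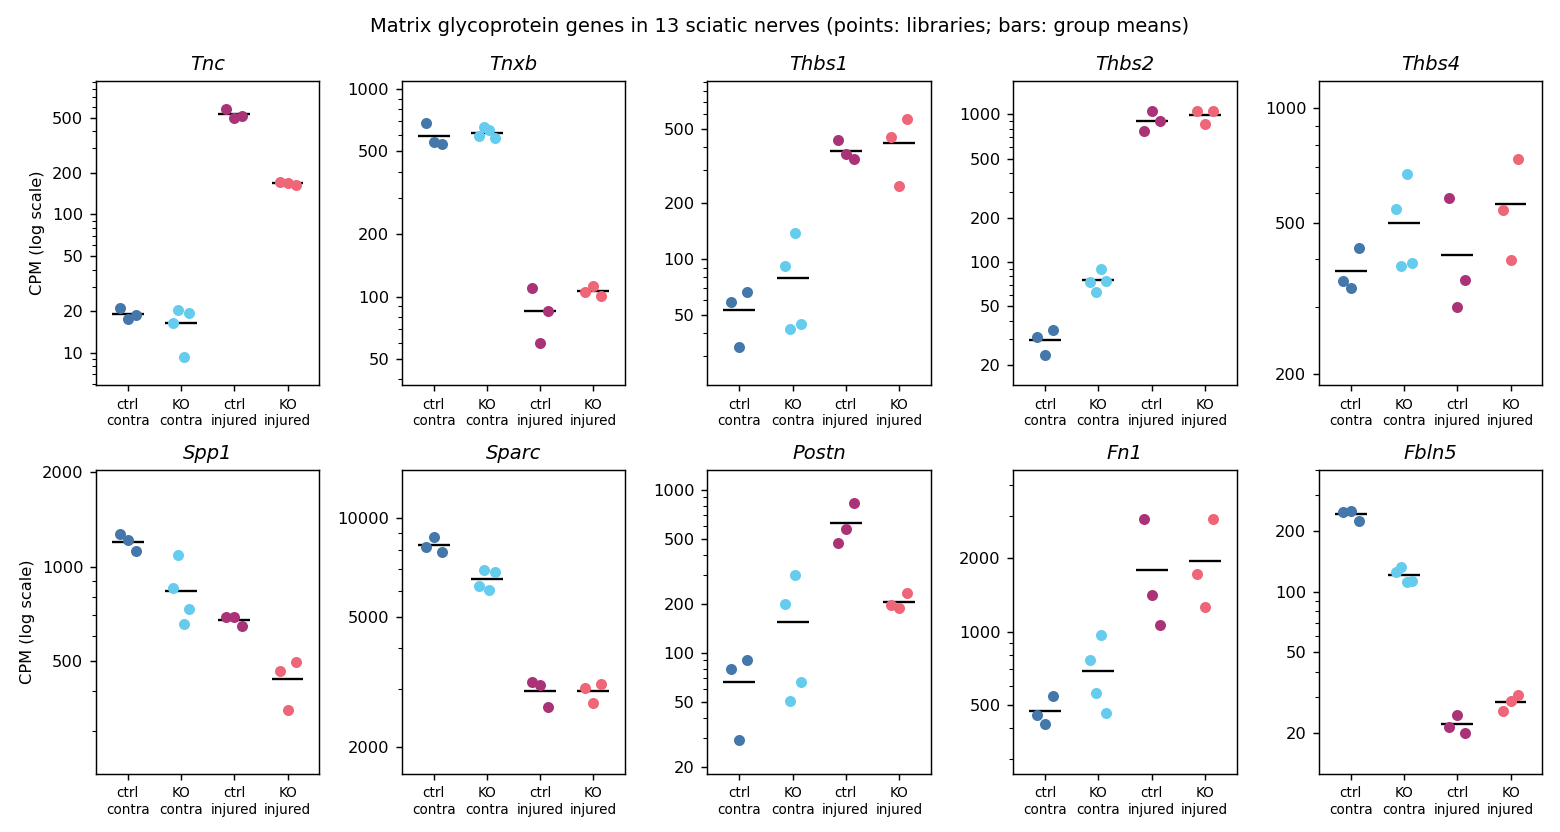
Level of each gene in CPM (log axis, scaled separately for each gene) in the 13 nerves, with control nerves as ctrl, RaptorKO nerves as KO, and contralateral nerves as contra (points, libraries; bars, group means). Tnc and Postn in injured RaptorKO nerves lie below all injured controls, Fbln5 in contralateral RaptorKO nerves lies at 112 to 133 CPM below all contralateral controls, and Thbs4 overlaps between injured and contralateral nerves.

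**Figure D3:**
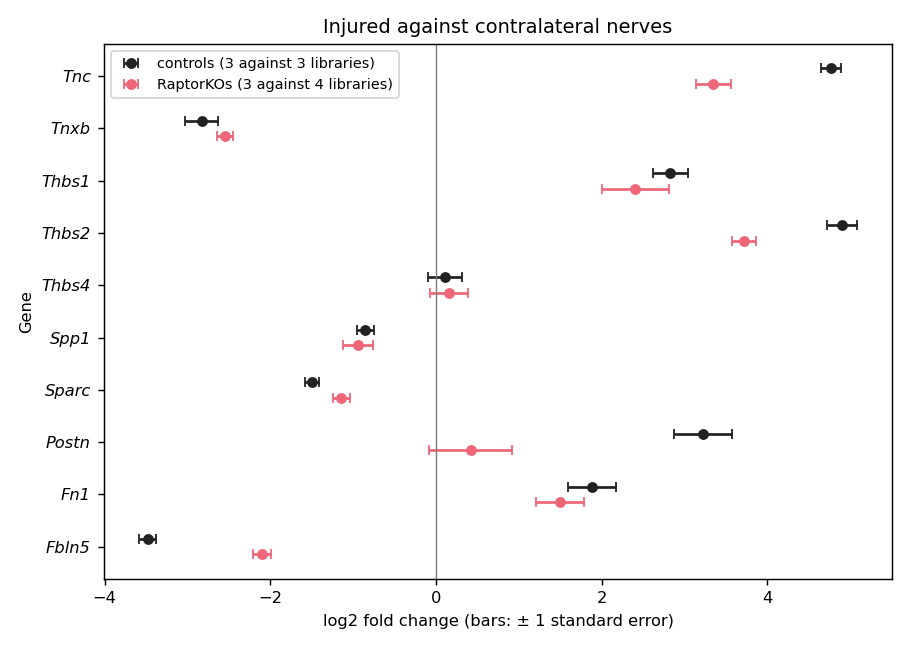
Log2 fold change of injured against contralateral nerves for each gene in controls (3 against 3 libraries) and RaptorKOs (3 against 4 libraries), with bars of ± 1 standard error. Tnc, Thbs1, Thbs2, and Fn1 lie above 0 and Tnxb, Spp1, Sparc, and Fbln5 below 0 in both genotypes, and Postn stands at 3.22 in controls and 0.42 in RaptorKOs.

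The second question was whether Raptor loss altered these genes without injury. Thbs2 was higher in RaptorKO contralateral nerves by 1.35 on the log2 scale (standard error 0.16, 2.55-fold, adjusted p = 0.00042). All 11 alternatives followed for single genes kept this call. Sparc was lower by a log2 difference of -0.32 (standard error 0.089, adjusted p = 0.0444). The Sparc call was lost without control contralateral 1, 2, or 3 (adjusted p = 0.144, 0.208, and 0.0829) or RaptorKO contralateral 1 (adjusted p = 0.14), and its adjusted p ranged from 0.0017 to 0.208 over the alternatives. With Fbln5, described above, 1 gene was called higher and 2 lower, against 4.49% of the 11878 genes tested called higher and 5.68% lower. The median difference was 0.25 for the 10 genes and 0.012 for all genes tested. Nothing is read from this count or median, since the pattern of Fbln5 led to the choice of the genes.

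Spp1 was lower by a log2 difference of -0.51 (standard error 0.15, adjusted p = 0.0598), just outside the threshold. It passed with DESeq2 (adjusted p = 0.00461) and without RaptorKO contralateral 2 (adjusted p = 0.00495), and the range over the alternatives was 0.00461 to 0.185. The other differences were 0.56 for Fn1 (standard error 0.21, adjusted p = 0.131), 1.24 for Postn (standard error 0.58, adjusted p = 0.222), 0.59 for Thbs1 (standard error 0.39, adjusted p = 0.387), and 0.43 for Thbs4 (standard error 0.18, adjusted p = 0.168). Fn1 passed without RaptorKO contralateral 4, the RaptorKO library with the lowest Fn1 value (adjusted p = 0.0315, with a range of 0.000635 to 0.354 over the alternatives). RaptorKO contralateral 3 held the highest value of Thbs1, Thbs2, Thbs4, Postn, and Fn1 among the 4 contralateral RaptorKOs and the lowest of Tnc, Spp1, Sparc, and Fbln5. In 2-sided exact permutation tests of mean log2 CPM over single genes, p was 0.0286 for Thbs2 and for Sparc, the smallest that 4 against 3 libraries allow, and 0.0571 for Spp1. For injury in RaptorKOs, Tnxb, Thbs1, Thbs2, Spp1, Sparc, and Fn1 each reached that same 0.0286 in the exact permutation test. For injury in controls the exact permutation test cannot go below p = 0.1 with 3 against 3 libraries. These permutation p-values are not adjusted for the number of genes.

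Markers of the cell types of a nerve moved with injury and with genotype, and their part in the values of the 10 genes was not tested. The summed CPM of 4 SC markers (Sox10, S100b, Erbb3, Cdh19) was 2303 to 2335 in control contralateral, 1216 to 1536 in RaptorKO contralateral, 1667 to 1780.3 in control injured, and 999 to 1335 in RaptorKO injured nerves. After injury 2 of the 4 were lower in controls, 2 were lower and 1 higher in RaptorKOs, and 3 of the 4 were lower in RaptorKO than in control contralateral nerves, as were 2 of the 4 in injured nerves. Between contralateral nerves the differences were -1.29 for Cdh19, -0.93 for S100b, and -0.43 for Erbb3. Sox10 was not called there (-0.25, standard error 0.095, adjusted p = 0.128). Between injured nerves Sox10 (-0.3, standard error 0.15, adjusted p = 0.301) and Erbb3 (-0.28, standard error 0.11, adjusted p = 0.163) were not called. The 7 macrophage markers summed to 70.3 to 101, 119 to 171, 709 to 1172, and 577 to 1379 CPM in the same order of groups, and all 7 were higher after injury in both genotypes. Of 6 macrophage markers tested between contralateral nerves, 4 were higher in RaptorKOs. The 6 fibroblast markers (Pdgfra, Dcn, Lum, Col1a1, Col1a2, Pdpn) summed to 5758 to 6542, 8303 to 10907, 5138 to 7356, and 6616 to 9912 CPM. Of these 6, 3 were higher in RaptorKO contralateral than in control contralateral nerves. The 5 perineurial markers summed to 1419.9 to 1625, 1307 to 2206, 612 to 676, and 609.6 to 679.7 CPM, and all 5 were lower after injury in both genotypes. Markers of epineurial fibroblasts, the layer removed at dissection, summed to 251 to 257, 301 to 391, 169 to 199, and 283 to 300.2 CPM, and 1 of the 5 (Cd34) was higher in RaptorKO contralateral nerves. Ly6c1 and Cd34 made up most of these sums, at means of 122 and 104 CPM in control contralateral nerves. There Pi16 ranged from 1.64 to 16.9 CPM, and Dpp4 and Clec3b had means of 10.6 and 6.43 CPM. RaptorKO contralateral 3 had the highest fibroblast (10907 CPM), perineurial (2206 CPM), and adipocyte (597 CPM) sums of all libraries. Control injured 1 and RaptorKO injured 3, which held the highest Fn1 and Thbs4 values of their groups, also held the highest fibroblast (7356 and 9912 CPM) and macrophage (1172 and 1379 CPM) sums of their groups.

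In injured nerves the genotypes were compared as a description. Tnc (-1.64), Postn (-1.59, standard error 0.19, 3.01-fold lower), and Spp1 (-0.62, standard error 0.13, 1.54-fold lower) passed the threshold toward lower values in RaptorKOs and 0 of the 10 toward higher values, beside 4.44% and 4.09% of 12040 genes tested. Nothing is read from this count, since this contrast was used to choose the genes. Fbln5 (0.38, standard error 0.15) did not pass it, although its libraries did not overlap. Thbs4 (0.46, standard error 0.25) and Tnxb (0.33, standard error 0.18) also stood higher in RaptorKOs, with overlapping libraries.
Thbs1 (0.16, standard error 0.23), Thbs2 (0.14, standard error 0.14), Fn1 (0.15, standard error 0.34), and Sparc (0.01, standard error 0.11) had differences near 0. Pericyte and vascular smooth muscle markers summed to 389 to 492 CPM in control injured and 725 to 1032 CPM in RaptorKO injured nerves, and 3 of the 4 tested were higher. The 5 endothelial markers were all higher, with sums of 206 to 311 and 364 to 563 CPM. The 2 epineurial fibroblast markers called higher, of 4 tested, were Ly6c1 (1.09, standard error 0.21) and Cd34 (0.64, standard error 0.12). Pi16 (-0.22, standard error 0.30) and Dpp4 (0.13, standard error 0.27) were not called. Also higher in RaptorKO injured nerves were 2 of 6 fibroblast and 1 of 4 perineurial markers tested, while 2 of 4 SC markers were lower and 0 of 7 macrophage markers were called. Their part in the differences of Tnc, Postn, and Spp1 was not tested.

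**Figure D4:**
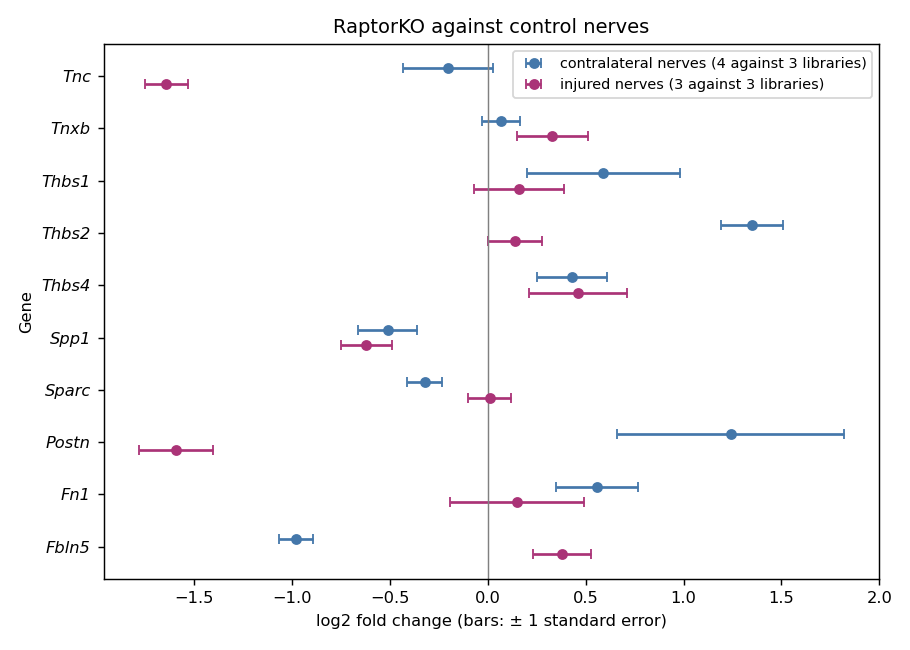
Log2 fold change of RaptorKO against control nerves for each gene in contralateral (4 against 3 libraries) and injured nerves (3 against 3 libraries), with bars of ± 1 standard error. Tnc and Postn are lower in injured RaptorKO nerves (-1.64 and -1.59), Spp1 is below 0 on both sides, Thbs2 stands apart from 0 in contralateral nerves only (1.35), and Fbln5 changes sign.

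The genotype effect in injured minus that in contralateral nerves was past the threshold and positive for Fbln5 (1.36), and negative for Tnc (-1.44) and Thbs2 (-1.21, standard error 0.22). Over all 12851 genes tested, 1.07% passed on the positive and 1.41% on the negative side, and again nothing is read from this count. For Tnc the larger difference between genotypes was in injured nerves (-1.64, beside -0.20 in contralateral ones), and for Thbs2 and Fbln5 in contralateral nerves (1.35 and -0.98, beside 0.14 and 0.38 in injured ones). Postn had the largest change of all 10 (-2.82, standard error 0.74), with a wide error and outside the threshold, which it passed when nerves of the same mouse were blocked (-2.87). The values of the remaining 6 genes lay between -0.44 (Thbs1, standard error 0.54) and 0.34 (Sparc, standard error 0.13). The comparisons share libraries, so the injury response of controls, that of RaptorKOs, and both genotype differences are not independent of one another.

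The genes most like Tnc and Fbln5 were found by the root mean square difference of log2 CPM over the 13 libraries, after each gene was centred on its own mean. For Tnc these were Gadd45a (0.399), which is induced by stress and DNA damage, Shcbp1 (0.432), and Racgap1 (0.438), a regulator of cytokinesis, with a median of 2.15 over all genes. Gadd45a stood at a mean of 7.80 CPM in control contralateral, 5.57 in RaptorKO contralateral, 219 in control injured, and 90.9 in RaptorKO injured nerves. Racgap1 stood at 9.67, 10.1, 179.9, and 107 CPM in the same order. For Fbln5 they were Itpkb (0.221), an inositol trisphosphate kinase, Myo1d (0.225), an unconventional myosin, and Acss2 (0.253), an acetyl-CoA synthetase, with a median of 1.44 over all genes. Itpkb stood at 612, 416, 67.8, and 74.1 CPM and Myo1d at 267, 166, 29.0, and 31.1 CPM in the same order.

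The members of the same families, their receptors, and the elastic fibre genes were examined as 6 lists of 73 genes in all, of which 57 to 60 were tested per comparison. After injury in controls 28 of 60 were higher and 18 lower, beside 32.4% and 32.9% of all 12430 genes tested. In RaptorKOs 27 of 60 were higher and 18 lower, beside 30.5% and 28.5% of all 12515 genes tested. Counts within the single lists are to be set beside the same shares. Among the tenascins and thrombospondins not described above, Thbs3 alone was tested, and it rose in controls (1.0, standard error 0.23, adjusted p = 0.00256) and in RaptorKOs (0.84, standard error 0.19, adjusted p = 0.00352). In the SPARC family 2 of 6 rose and 4 fell in both genotypes, with Spock1 at 1.48 (standard error 0.16, adjusted p = 6.54e-06) and Spock2 at -2.38 (standard error 0.13, adjusted p = 1.45e-08) in controls. In the CCN family, matricellular proteins that bind integrins, 3 of 4 fell in controls, led by Ccn1 (-2.22, standard error 0.16, adjusted p = 1.5e-07). Of 21 fibulin and elastic fibre genes, 12 rose and 5 fell in controls. There the fibrillin gene Fbn2 rose by 4.42 (standard error 0.32, adjusted p = 1.51e-07), while Lox, which crosslinks elastin and collagen, fell by 4.76 (standard error 0.18, adjusted p = 5.84e-10) and the microfibril gene Mfap5 fell by 4.34 (standard error 0.13, adjusted p = 1.29e-10). Among 18 receptors 9 rose and 3 fell in controls, led by Cd44, a receptor of osteopontin and hyaluronan, at 3.97 (standard error 0.11, adjusted p = 1.03e-10), and by Stab1, a scavenger receptor that takes up SPARC, at 3.67 (standard error 0.22, adjusted p = 2.92e-08).

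Between contralateral nerves 10 of the 59 genes tested were higher in RaptorKOs and 4 lower, beside 4.49% and 5.68% of all 11878 genes tested. Ecm1 (0.80, standard error 0.073, adjusted p = 0.00011) and Tgfbi (0.78, standard error 0.19, adjusted p = 0.0269) were higher among other matrix glycoproteins, as was Fbln2 among the fibulins (0.73, standard error 0.13, adjusted p = 0.00529). The integrin subunits Itgb3 (0.85, standard error 0.14, adjusted p = 0.00442) and Itga5 (0.62, standard error 0.13, adjusted p = 0.0154) were higher, and Itga5 is the subunit of the main fibronectin receptor. The lower genes included Vwa1 (-0.81, standard error 0.13, adjusted p = 0.00363), Itga8 (-0.73, standard error 0.19, adjusted p = 0.0358), Ccn4 (-0.44, standard error 0.11, adjusted p = 0.0289), and Mfap5 (-0.39, standard error 0.073, adjusted p = 0.00772). Without 1 control library the number called higher dropped to 5 (control contralateral 1), 4 (control contralateral 2), or 6 (control contralateral 3). The number called lower dropped to 1 without control contralateral 2 and to 2 without control contralateral 3 or RaptorKO contralateral 1.

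Between injured nerves 9 of 57 were higher in RaptorKOs and 5 lower, beside 4.09% and 4.44% of all 12040 genes tested. The elastin gene Eln (1.38, standard error 0.29, adjusted p = 0.0146), Itga8 (1.03, standard error 0.17, adjusted p = 0.00454), Ccn2 (0.91, standard error 0.21, adjusted p = 0.0228), and Sparcl1 (0.71, standard error 0.12, adjusted p = 0.0047) were among the higher genes. Fndc1 (-1.39, standard error 0.30, adjusted p = 0.0157), Ccn4 (-1.13, standard error 0.22, adjusted p = 0.0107), and Vwa1 (-0.66, standard error 0.16, adjusted p = 0.0235) were among the lower ones. Ccn4 and Vwa1 were thus lower in RaptorKOs in contralateral and in injured nerves. The number called higher was 5 without control injured 1, 3 without control injured 2, and 4 without RaptorKO injured 1, and the number called lower was 3 without control injured 2 or 3.

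Several of the 10 genes overlap another annotated gene, few of whose reads were counted. The genes annotated within Tnc, Thbs1, and Fn1 on the other strand held at most 3, 0, and 1 counts in any library, and Gm42793, which overlaps Spp1 on the same strand, at most 20. Tnxb overlaps Gm24389, with 0 counts, and Cyp21a2-ps, which was not analysed here. The sources used here do not say if counting took strand into account.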

How the data were processed

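RNA of 13 mouse sciatic nerves (3 control contralateral, 4 RaptorKO contralateral, 3 control injured, 3 RaptorKO injured) was sequenced with 1 library per nerve. Per the labels and the study's methods, the authors trimmed reads with Trimmomatic, aligned them to GRCm38, and estimated expected counts per gene with RSEM 1.2.22. They deposited these without normalization. Of the nonzero values, 24.93% to 27.95% per library were not whole, since RSEM divides a read that fits several genes among them, and these were rounded here. Of 40787 gene IDs, 40634 were matched to GENCODE M21 for symbols, coordinates, and exon lengths. Promoter windows came from RefSeq (GRCm38.p6).

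The analysis used edgeR 4.0.16 in R 4.3.3. Genes with 50 counts or more in 2 or more libraries of a comparison were tested. Differences were tested with the quasi-likelihood test after TMM scaling. Calls required a Benjamini-Hochberg adjusted p, over all genes tested, of less than 0.05 and a fold of more than 1.2. CPM are TMM-scaled, and log2 CPM use a prior count of 2. Single genes were also compared by a two-sided exact permutation test (scipy 1.17.1). The scripts were tested on simulated data. The alternatives were the DESeq2 1.42.0 size factors and Wald test, no count filter, an adjusted p below 0.01, a replicate block, edgeR's exact test (used in the study), 1 fit of all 13 libraries, a prior count of 10, and leaving out each library. Leaving out both libraries of control replicate 3 was added after the data were seen. Figures were drawn with matplotlib 3.10.9 in Python 3.11.15.

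The members and lists were chosen with earlier results of these data known. The text names all 10 members. From each list, comparison, and direction it names genes among the 2 called with the largest absolute fold change (all called genes for the interaction), and for Tnc and Fbln5 the 3 genes most like each. Libraries came from separate mice within a group. Crushes were unilateral, the study set injured beside corresponding contralateral nerves, and titles number both alike, so nerves of the same number and genotype were taken as 1 mouse, although no source says so outright. Their deviations from the group means correlated with r of 0.07, 0.13, and 0.30 in controls and -0.03, 0.20, and 0.19 in RaptorKOs. The fit without this pairing is the main one, and the replicate block the alternative. Between genotypes, equal numbers are different mice. All value columns were used. Some marker genes are not reported here and were left out of the marker sums.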

Additional observations from a re-analysis of the deposited data

Results flagged for a closer look

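In groups of 4 libraries the highest and lowest were checked for a gap from the rest, over 43 genes (the 10 members and the list genes that the naming rule selects), and such a check marks about 1 in 20 groups by chance. Ltbp4, a binding protein of latent TGF-beta, stood at 206 CPM in RaptorKO contralateral 3 and at 117 to 123 CPM in the other 3 RaptorKO contralateral nerves. Spock2, a SPARC family proteoglycan, stood at 309 CPM in RaptorKO contralateral 4 and at 246 to 252 CPM in the other 3. None of the 10 members had a library that stood apart by this measure.

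The interaction of genotype and injury passed the threshold in 1.07% of all 12851 genes tested on the positive side and in 1.41% on the negative side. In 10 of the 60 genes tested from the related lists, the effect of genotype differed between injured and contralateral nerves (interaction term in edgeR's quasi-likelihood fit, log2 scale, Benjamini-Hochberg adjusted p). It was more positive after injury for Itga8 (1.77, standard error 0.26, adjusted p = 0.00305), Ccn2 (1.07, standard error 0.26, adjusted p = 0.0426), Mfap5 (0.97, standard error 0.16, adjusted p = 0.00536), and Sparcl1 (0.61, standard error 0.14, adjusted p = 0.0304). It was more negative for Fndc1 (-1.74, standard error 0.31, adjusted p = 0.00868), Nid2 (-0.96, standard error 0.17, adjusted p = 0.00862), Ecm1 (-0.87, standard error 0.13, adjusted p = 0.00334), Fbln2 (-0.78, standard error 0.19, adjusted p = 0.0429), Cd44 (-0.69, standard error 0.16, adjusted p = 0.0319), and Matn2 (-0.58, standard error 0.11, adjusted p = 0.0116). Itga8, an integrin subunit that binds tenascin-C, osteopontin, and fibronectin, stood at 23.5 ± 3.35 CPM (SD, n = 3) in control contralateral, 13.9 ± 3.13 (n = 4) in RaptorKO contralateral, 10.5 ± 0.859 (n = 3) in control injured, and 21.2 ± 2.43 (n = 3) in RaptorKO injured nerves. It thus fell after injury in controls (-1.19, standard error 0.17, adjusted p = 6.21e-05) and rose in RaptorKOs (0.60, standard error 0.19, adjusted p = 0.0211). Ccn2, which encodes connective tissue growth factor, and Nid2, a basement membrane nidogen, also changed direction. Ccn2 fell in controls (-0.49, standard error 0.13, adjusted p = 0.00736) and rose in RaptorKOs (0.61, standard error 0.18, adjusted p = 0.0154), whereas Nid2 rose in controls (0.33, standard error 0.097, adjusted p = 0.0107) and fell in RaptorKOs (-0.62, standard error 0.13, adjusted p = 0.00173).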

How the results depend on the processing

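In the comparisons of injured with contralateral nerves the calls of the 10 members were kept in both genotypes under every alternative tried. The direction of Thbs4, not called, turned to -0.19 without control injured 1 (up to 0.32 without other single libraries) and to -0.09 without RaptorKO injured 3 (up to 0.36), and the difference of Tnc between contralateral nerves ranged from -0.33 to 0.00 with single libraries left out, the latter without RaptorKO contralateral 3. Another scaling moved the median of all genes by at most 0.025 (log2). Between contralateral nerves 1 member was called higher, or 2 without the count filter (Fn1 added) and 1 to 2 with single libraries left out. There 2 were called lower, or 1 at the stricter threshold of 0.01 and 1 to 3 with single libraries left out. Between injured nerves 0 members were called higher, or 1 without the count filter (Thbs4) and 1 with all 13 libraries in 1 fit (Fbln5). Of 2 members past the threshold with a more negative genotype effect after injury, 1 passed the stricter one, from which nothing is read because this contrast was used to choose the genes. Of the related matrix genes, 10 were called higher between contralateral nerves (4 to 11 with single libraries left out) and 4 lower (1 to 4). Between injured nerves 9 were higher (17 without the count filter, 3 to 11 with single libraries left out) and 5 lower (3 to 5). For the change of the genotype effect, 4 were positive (2 to 3 with single libraries left out) and 6 negative, and 2 and 2 without both libraries of control replicate 3. The cause of these changes was not tested. With few libraries per group, differences of about the size of the standard errors given could not be detected.

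Between genotypes, deviations of same-numbered libraries from the group means correlated with r of 0.04, 0.34, and 0.27 in contralateral and 0.03, 0.01, and -0.05 in injured nerves, so these libraries were taken to share only a number. Each of the 3 contralateral RaptorKOs with a control of its number correlated best with that control, which is a hint from the data and not the design. With the replicate block 5 members were called higher between contralateral nerves (Thbs1, Thbs2, Thbs4, Postn, and Fn1) and 3 lower, and 22 related genes were called higher. The shares of all genes called under the block or the other alternatives are not given here, so nothing is read from these counts. Blocked by mouse, the comparisons of injured with contralateral nerves kept every member's call. The block changed no other count of calls by over 1.5 times.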
